A study of Mus musculus with 5 samples.

Results

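The VEGF ligands and receptors were 9 of the 31053 genes counted in single-cell RNA sequencing of sorted mouse liver cells, and they were chosen by name as a family. Of the 9, 4 were ligands (Vegfa, Vegfb, Vegfc and Pgf), 3 were receptor tyrosine kinases (Flt1, Kdr and Flt4) and 2 were neuropilin co-receptors (Nrp1 and Nrp2), and all 9 were in the files. Male C57BL/6J mice carried Rosa26mTmG and Col1a1-Cre in every group, so that green fluorescence marked any cell in which the Col1a1 collagen promoter had been active, now or earlier. DEN+WAD mice received the carcinogen diethylnitrosamine (DEN) at 10 mg/kg when 2 weeks old, and from 6 weeks a liquid Western alcohol diet (WAD) with 3.5% ethanol by volume for 5 months. Control mice received saline and chow over the same time. Cells were sorted on stored vitamin A (VitA), the autofluorescent retinoid of hepatic stellate cells (HSC), and on the Col1a1 reporter. Of the 5 libraries, 2 held the VitA+Col1a1+ gate and 2 the VitA-Col1a1+ gate, each from DEN+WAD and from chow liver, and the last held DEN+WAD cells labelled VitA-Col1a1-. Each group was 1 library and the labels do not say how many mice it holds, so differences between groups have no replicate check and no test was possible.

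Vascular endothelial growth factors are secreted ligands that act mainly on endothelium. VEGF-A, the main angiogenic ligand, binds the receptors encoded by Flt1 (VEGFR1) and Kdr (VEGFR2), and most of its mitogenic signal passes through Kdr. VEGF-B and placental growth factor (Pgf) bind Flt1 alone, whose soluble splice form traps ligand, and VEGF-C acts on Flt4 (VEGFR3) and Kdr and drives lymphatic growth. The neuropilins bind VEGFs and class 3 semaphorins and have no kinase of their own. In the liver, sinusoidal endothelial cells are known to carry all the receptors, lining a vessel wall that HSC embrace as pericytes.

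In the GENCODE annotation of GRCm38, Vegfa spans chr17:46016993-46032369, Vegfb chr19:6982473-6987651, Vegfc chr8:54077606-54187096 and Pgf chr12:85166635-85177790. Flt1 spans chr5:147561604-147726011, Kdr chr5:75932827-75978458 and Flt4 chr11:49609263-49652739. Nrp1 spans chr8:128358604-128503363 and Nrp2 chr1:62703285-62818695. UMIs were counted from 3′ ends for whole genes, so splice forms such as soluble Flt1 cannot be told from full-length ones. All 9 members had a RefSeq promoter window of 300 bases, from 250 before to 50 after the start (GRCm38.p6). Those of Flt1, at chr5:147725962-147726261, and Kdr, at chr5:75978406-75978705, both on the minus strand, are shown because these were the receptors that parted ways in mesenchymal cells, a choice made after seeing the values. Capitals mark GGGCGG, the GC box, and TATAA, on either strand.
Flt1: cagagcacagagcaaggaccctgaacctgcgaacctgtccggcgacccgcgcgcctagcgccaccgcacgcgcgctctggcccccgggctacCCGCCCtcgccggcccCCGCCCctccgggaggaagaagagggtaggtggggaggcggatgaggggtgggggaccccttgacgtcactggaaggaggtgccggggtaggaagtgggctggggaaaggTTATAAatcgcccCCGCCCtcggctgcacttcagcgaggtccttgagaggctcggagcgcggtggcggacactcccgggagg
Kdr: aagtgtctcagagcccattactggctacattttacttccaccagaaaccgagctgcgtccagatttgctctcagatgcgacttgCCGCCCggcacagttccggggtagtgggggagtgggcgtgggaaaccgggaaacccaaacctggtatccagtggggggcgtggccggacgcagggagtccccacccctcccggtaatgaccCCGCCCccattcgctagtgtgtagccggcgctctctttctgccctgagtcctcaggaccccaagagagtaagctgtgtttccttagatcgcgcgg
The Flt1 window held 3 matches of GGGCGG and 2 overlapping matches of TATAA, and the Kdr window held 2 of GGGCGG and 0 of TATAA. Over 32851 windows of the same length, 35.7% held GGGCGG and 24.9% held TATAA. GC content was 70.7% in the Flt1 window and 60.7% in the Kdr window, against a median of 52.7% over all windows. The hypoxia response core ACGTG, which 19.6% of all windows held on either strand, matched neither of these.

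Levels are UMIs of a gene per 1000000 UMIs (CPM), summed over a library or a cell class, with exact Poisson 95% intervals in parentheses that cover counting error only. They compare 1 gene between samples, not genes with each other. The libraries held 10481 cells (VitA+Col1a1+ DEN+WAD), 2729 (VitA-Col1a1+ DEN+WAD), 259 (VitA+Col1a1+ chow), 668 (VitA-Col1a1+ chow) and 9870 (VitA-Col1a1-), with median UMIs per cell from 9106 to 24077. Between 2 and 40 barcodes of a library were also found in another library. Cells were put in classes by their own RNA. Mesenchymal cells had 20 or more UMIs of Dcn, Col3a1 and Colec11 together per 10000, whatever else they held. Among the others, Stab2-positive cells (Stab2, a scavenger receptor of sinusoidal endothelium), Vwf-positive cells (Vwf, of larger vessels) and C1qa-positive cells (C1qa, complement of macrophages) had 2 or more UMIs of that gene alone. The remaining barcodes with more than 1 of these markers were kept apart as mixed, and no doublet caller was run. The library labelled VitA-Col1a1- did not match its label in its RNA: 52.6% of its cells were mesenchymal and these held Col1a1 at 1892 CPM, against 1921 CPM in VitA-Col1a1+ chow. It is therefore called the library labelled VitA-Col1a1- throughout, and no direction is drawn from that label. Its comparison of Stab2-positive with mesenchymal cells was repeated in VitA-Col1a1+ DEN+WAD. Mesenchymal cells made up 97.9% and 95.4% of the VitA+Col1a1+ DEN+WAD and chow libraries, and 81.1% and 92.1% of the VitA-Col1a1+ pair. Stab2-positive cells made up 1.47% and 3.47% of the VitA+Col1a1+ pair, 14.5% and 5.09% of the VitA-Col1a1+ pair and 17.4% of the library labelled VitA-Col1a1-. The classes carried their markers: the 8 sinusoidal genes summed to 9879 CPM in Stab2-positive cells of the last library, and the 9 macrophage genes to 22686 CPM in its C1qa-positive cells. Alb, the hepatocyte albumin gene, was at 464 CPM in its mesenchymal, 746 CPM in its Stab2-positive and 2928 CPM in its C1qa-positive cells.

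Vegfa, the main angiogenic ligand, was found in every class. Over all cells it was at 18.5 CPM (15.3 to 22.3) in VitA+Col1a1+ chow, 23.2 CPM (22.4 to 24.0) in VitA+Col1a1+ DEN+WAD, 86.0 CPM (81.3 to 90.8) in VitA-Col1a1+ chow, 62.8 CPM (60.6 to 65.1) in VitA-Col1a1+ DEN+WAD and 62.9 CPM (61.4 to 64.4) in the library labelled VitA-Col1a1-. Both VitA+ libraries were thus below all VitA- libraries, and the last 2 values were within counting error of each other. In mesenchymal cells alone the order was the same, from 15.7 CPM in VitA+Col1a1+ chow and 22.6 CPM in VitA+Col1a1+ DEN+WAD to 84.3 CPM in VitA-Col1a1+ chow. In the library labelled VitA-Col1a1-, the classes lay close together: Vegfa was at 62.4 CPM in mesenchymal, 50.2 CPM in Stab2-positive, 63.1 CPM in Vwf-positive and 74.2 CPM in C1qa-positive cells. The cells outside all classes of VitA-Col1a1+ DEN+WAD held 154 CPM (128 to 183).

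Vegfb, the Flt1 ligand with little angiogenic activity, was the member that varied least. Over all cells it was at 56.1 CPM in VitA+Col1a1+ chow, 61.3 CPM in VitA+Col1a1+ DEN+WAD, 46.6 CPM in VitA-Col1a1+ chow, 47.9 CPM in VitA-Col1a1+ DEN+WAD and 30.8 CPM in the library labelled VitA-Col1a1-. Within each gate the intervals of chow and DEN+WAD overlapped. By class in the last library it ran from 19.9 CPM (12.6 to 29.8) in Vwf-positive to 39.9 CPM (36.7 to 43.3) in Stab2-positive cells.

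Vegfc, the lymphangiogenic ligand, was mainly a mesenchymal transcript. Over all cells it was at 121 CPM in VitA+Col1a1+ chow, 134 CPM in VitA+Col1a1+ DEN+WAD, 266 CPM in VitA-Col1a1+ chow, 185 CPM in VitA-Col1a1+ DEN+WAD and 91.8 CPM in the library labelled VitA-Col1a1-. Mesenchymal cells held 91.7% of its UMIs in the library labelled VitA-Col1a1- and between 96.8% and 99.9% in the other 4. Stab2-positive cells were at 9.50 to 20.4 CPM over 4 libraries, while mesenchymal cells were at 125 to 281 CPM over all 5. Vwf-positive cells stood out among the endothelial classes with 137 CPM (116 to 160) in the library labelled VitA-Col1a1-. Its mesenchymal cells were at 151 CPM (148 to 154), and the shares holding Vegfc after thinning were 26.0% and 25.0%. After thinning to 2000 UMIs a cell, 38.4% of VitA-Col1a1+ chow and 23.5% of VitA+Col1a1+ DEN+WAD mesenchymal cells still held a Vegfc UMI, against 3.25% of Stab2-positive cells in the library labelled VitA-Col1a1-. The unthinned shares were 94.0%, 78.6% and 8.49%, at median depths that differed between these classes.

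Pgf, the placental growth factor gene, was low in both VitA+ libraries. Over all cells it was at 0.325 CPM in VitA+Col1a1+ chow from 2 UMIs, 1.27 CPM (1.09 to 1.46) in VitA+Col1a1+ DEN+WAD, 13.5 CPM (11.7 to 15.5) in VitA-Col1a1+ chow, 10.5 CPM (9.58 to 11.4) in VitA-Col1a1+ DEN+WAD and 10.3 CPM (9.68 to 10.9) in the library labelled VitA-Col1a1-. The VitA+ and VitA- libraries did not overlap. All of its UMIs in VitA+Col1a1+ DEN+WAD, VitA+Col1a1+ chow and VitA-Col1a1+ chow came from mesenchymal cells, which were 97.9%, 95.4% and 92.1% of cells there. In VitA-Col1a1+ DEN+WAD they held 98.6% of Pgf UMIs and were 81.1% of cells. In the library labelled VitA-Col1a1- they held 87.3% of its UMIs and were 52.6% of cells. C1qa-positive cells held 3 Pgf UMIs and Vwf-positive cells 1.

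**Figure D1:**
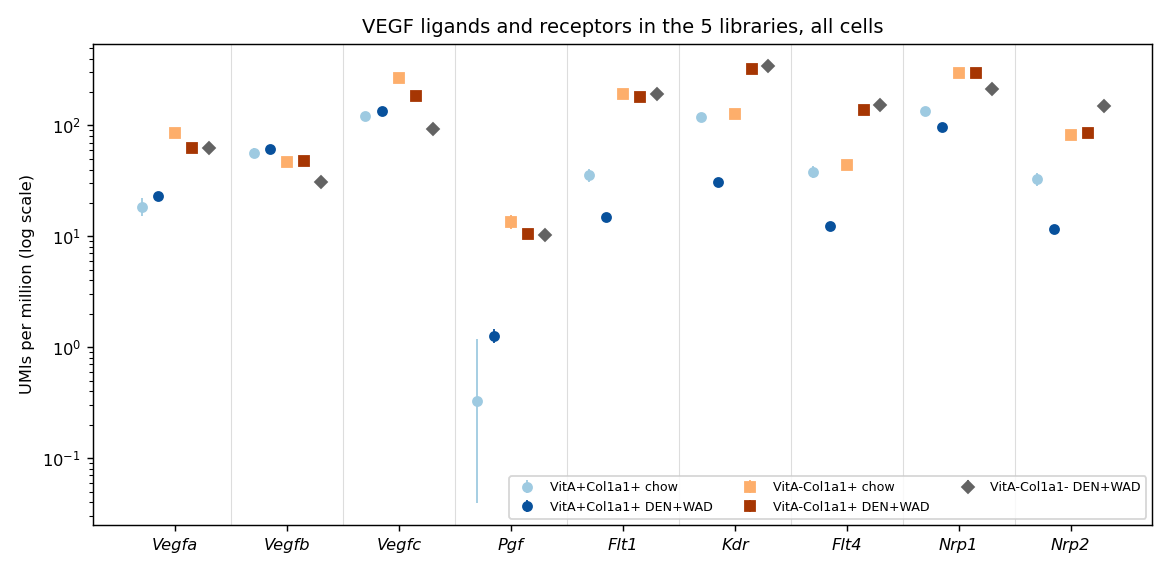
Each point gives the UMIs per 1000000 of one VEGF ligand or receptor over all cells of 1 library, on a log axis, with exact Poisson 95% intervals as bars (often smaller than the point). Pgf spans the widest range, from 0.325 to 13.5, and Vegfb the narrowest, from 30.8 to 61.3.

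Kdr, the main signalling receptor for VEGF-A, was mainly an endothelial transcript, with 69.6% to 98.7% of its UMIs in Stab2-positive cells over the 5 libraries. It was at 118 CPM in VitA+Col1a1+ chow, 30.7 CPM in VitA+Col1a1+ DEN+WAD, 127 CPM in VitA-Col1a1+ chow, 319 CPM in VitA-Col1a1+ DEN+WAD and 340 CPM in the library labelled VitA-Col1a1-. This is also the order of the Stab2-positive share of cells, and the neighbours 118 and 127 CPM had overlapping intervals. Over a whole gate, fewer cells of a type and less RNA per cell cannot be told apart. Within Stab2-positive cells Kdr was at 2581 CPM in VitA+Col1a1+ DEN+WAD, 3032 CPM in VitA-Col1a1+ chow, 2476 CPM in VitA-Col1a1+ DEN+WAD and 1758 CPM in the library labelled VitA-Col1a1-. After thinning, between 94.0% and 100% of Stab2-positive cells held a Kdr UMI, against 3.1% of C1qa-positive cells, which should lack it (unthinned, 99.4% or more against 6.06%, at median depths from 8069 to 17725 and of 12474 UMIs).

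Flt4, the VEGF-C receptor, followed Kdr. It was at 37.9 CPM in VitA+Col1a1+ chow, 12.4 CPM in VitA+Col1a1+ DEN+WAD, 43.9 CPM in VitA-Col1a1+ chow, 138 CPM in VitA-Col1a1+ DEN+WAD and 154 CPM in the library labelled VitA-Col1a1-. The intervals of the libraries at 37.9 and 43.9 CPM overlapped. Stab2-positive cells were between 784 and 1054 CPM over 4 libraries, and Vwf-positive cells were at 220 CPM (194 to 249). Of the 5 lymphatic genes found, Pdpn and Mmrn1 were at 0 UMIs in Vwf-positive cells, and Prox1 had 10 UMIs. The others, Reln and Thy1, are also stellate and portal fibroblast markers and are not given here. Whether any of these cells were lymphatic was not tested.

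Flt1, the receptor with weak kinase activity that also binds VEGF-B and PlGF, departed from the other kinases. It was at 35.5 CPM in VitA+Col1a1+ chow, 15.1 CPM in VitA+Col1a1+ DEN+WAD, 193 CPM in VitA-Col1a1+ chow, 181 CPM in VitA-Col1a1+ DEN+WAD and 190 CPM in the library labelled VitA-Col1a1-. The 3 VitA- libraries lay within 181 to 193 CPM, although their Stab2-positive shares were 5.09%, 14.5% and 17.4%. In VitA-Col1a1+ chow, 76.2% of Flt1 UMIs were in mesenchymal cells, where only 0.419% of Kdr UMIs and 3.34% of Flt4 UMIs were found. In VitA-Col1a1+ DEN+WAD the mesenchymal share of UMIs was 36.0% for Flt1, 5.10% for Kdr and 6.34% for Flt4. Of the pair whose promoter windows are printed above, Flt1 was thus found in both compartments and Kdr mainly in endothelium.

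Nrp1, the co-receptor for VEGF-A, was spread over all classes. It was at 136 CPM in VitA+Col1a1+ chow, 96.8 CPM in VitA+Col1a1+ DEN+WAD, 296 CPM in VitA-Col1a1+ chow, 295 CPM in VitA-Col1a1+ DEN+WAD and 212 CPM in the library labelled VitA-Col1a1-, and the values of 295 and 296 CPM were within counting error. Mesenchymal cells ran from 85.9 CPM in VitA+Col1a1+ DEN+WAD to 251 CPM in VitA-Col1a1+ chow, and Stab2-positive cells from 675 to 1418 CPM. Nrp2, the co-receptor for VEGF-C, was at 32.7 CPM in VitA+Col1a1+ chow, 11.6 CPM in VitA+Col1a1+ DEN+WAD, 81.9 CPM in VitA-Col1a1+ chow, 85.4 CPM in VitA-Col1a1+ DEN+WAD and 148 CPM in the library labelled VitA-Col1a1-. Its mesenchymal levels were 10.1 and 5.84 CPM in the VitA+ chow and DEN+WAD libraries, and 59.2 and 23.2 CPM in the matching VitA- libraries. Both neuropilins were lower in VitA+ than in VitA- mesenchymal cells. C1qa-positive cells held Nrp1 at 93.0 CPM (87.5 to 98.8) and Nrp2 at 65.2 CPM (60.6 to 70.1), 0.656 and 0.861 times the level in mesenchymal cells of their library. Their Kdr, at 11.1 CPM (9.25 to 13.2), and Flt1, at 7.73 CPM (6.19 to 9.54), were 0.122 and 0.0972 times the mesenchymal level. The mesenchymal class of this library kept 589 cells with 2 or more UMIs of Stab2, Vwf or C1qa. Against the 4607 mesenchymal cells without them, the ratio was 0.964 (0.788 to 1.17) for Kdr, 0.180 (0.143 to 0.223) for Flt1, 0.798 (0.746 to 0.852) for Nrp1 and 1.24 (1.14 to 1.34) for Nrp2. The 8 sinusoidal markers, all above 0, summed to 284 CPM in these cells. After thinning to 2000 UMIs a cell, 25.4% of C1qa-positive cells had a neuropilin UMI without any kinase receptor UMI.

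Sinusoidal and mesenchymal cells divided the family between them in the sort labelled VitA-Col1a1-. Here and below, a gene was called higher or lower when its level differed at least 2-fold and the mean of both levels was at least 2 CPM. Of the 9 members, 5 were higher in Stab2-positive than in mesenchymal cells, where 14.8% of the 11673 genes past the level floor were. Kdr was 19.4-fold higher (18.8 to 20.0, conditional binomial 95% interval), Flt4 19.1-fold (18.2 to 19.9), Flt1 9.78-fold (9.46 to 10.1), Nrp2 7.53-fold (7.26 to 7.81) and Nrp1 4.76-fold (4.63 to 4.91). The ligands Vegfc, at a ratio of 0.136 (0.120 to 0.152), and Pgf, at 0.240 (0.180 to 0.316), were the 2 members lower, against 16.7% of genes. Vegfa (0.805) and Vegfb (1.23) passed neither bound. These ratios depend on the mesenchymal cells that carry another class's marker. Against the mesenchymal cells with none of the 3 markers, Kdr was 153-fold higher (140 to 166), Flt4 117-fold (105 to 130), Flt1 18.1-fold (17.3 to 18.9), Nrp2 10.8-fold and Nrp1 5.79-fold, with Vegfc at 0.128 and Pgf at 0.219. The same rule within VitA-Col1a1+ DEN+WAD gave 5 higher and 2 lower as well. The median log2 ratio was 2.25 over the 9 members and 0.07 over all genes past the floor.

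Endothelial cells differed by vessel marker. From Stab2-positive to Vwf-positive cells of that library, Kdr went from 1758 to 500 CPM (ratio 0.285, 0.262 to 0.309), Flt4 from 784 to 220 CPM and Nrp2 from 570 to 212 CPM, whereas Flt1 was at 778 and 861 CPM (ratio 1.11, 1.04 to 1.18). Vegfc was the 1 member higher in Vwf-positive cells, 6.68-fold (5.47 to 8.14), where 8.27% of genes were higher. The 5 members lower were Kdr, Flt4, Nrp2, Vegfb (0.498) and Pgf, the last from 1 UMI against 55 (ratio 0.224, 0.00556 to 1.30), and 6.16% of genes were lower. Vwf-positive cells numbered 126, and their sinusoidal markers summed to 2749 CPM against 9879 CPM in Stab2-positive cells. After thinning to 2000 UMIs, all 3 kinase receptors were found together in 53.2% of Stab2-positive and 17.9% of Vwf-positive cells of this library. In the other 3 libraries with at least 20 Stab2-positive cells, that share was 67.1% to 72.0%.

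**Figure D2:**
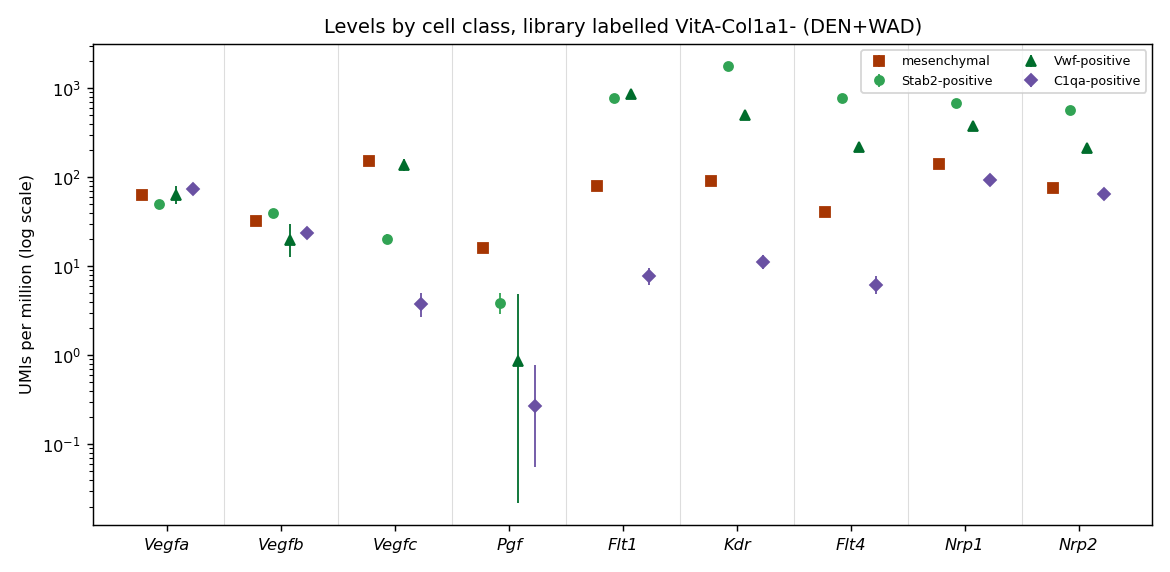
UMIs per 1000000 of each member, on a log axis with exact Poisson 95% intervals, in 4 cell classes of the library labelled VitA-Col1a1-. Kdr, Flt4, Flt1, Nrp1 and Nrp2 are highest in endothelial classes and Pgf in mesenchymal cells. Vegfc has overlapping intervals in mesenchymal and Vwf-positive cells, and Vegfa lies between 50.2 and 74.2 in all 4.

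VitA+ and VitA- mesenchymal cells differed in most of the family. In DEN+WAD liver, 7 of the 9 members were higher in VitA-Col1a1+ than in VitA+Col1a1+ mesenchymal cells and 0 were lower, where 8.06% of genes were higher and 1.65% lower. Flt1 was at 76.7 against 6.61 CPM (11.6-fold, 10.8 to 12.5), Pgf at 12.1 against 1.28 CPM (9.45-fold, 7.98 to 11.2), Nrp2 3.97-fold, Vegfa 2.63-fold (2.50 to 2.78) and Nrp1 2.17-fold. Kdr (3.20-fold) and Flt4 (3.73-fold) were also called, and Stab2 in the same cells was at 12.8 against 2.60 CPM. Vegfc at 1.55-fold and Vegfb at 0.781 were not called. In chow liver 6 members were higher and 2 lower, where 12.8% and 6.95% of genes were. Flt1 was at 156 against 10.8 CPM (14.5-fold, 11.3 to 18.9), Vegfa at 84.3 against 15.7 CPM (5.38-fold, 4.35 to 6.72), Nrp2 5.86-fold, Nrp1 2.61-fold and Vegfc 2.24-fold. Pgf rested on 2 UMIs in VitA+ cells and had a ratio of 42.4 (11.6 to 353). Kdr (0.0227) and Flt4 (0.210) were the members lower, with Stab2 at 0.849 against 13.6 CPM. So the direction of Kdr and Flt4 between gates was opposite in chow and DEN+WAD liver, as was that of Stab2, while Flt1, Pgf, Vegfa, Nrp1 and Nrp2 were higher in VitA- cells in both. In mesenchymal cells with under 2 UMIs of Stab2, Vwf and C1qa each, Kdr and Flt4 were not called in either, with means under the level floor. There Flt4 was at 1.56 against 0.172 CPM in chow, from 22 and 1 UMIs, the reverse of its direction above, and Kdr at 0.566 against 1.03 CPM, from 8 and 6 UMIs. Flt1 was 18.1-fold higher in the VitA- cells of DEN+WAD (16.5 to 19.8) and had a ratio of 455 in chow (126 to 3760), from 2 VitA+ UMIs. Nrp2 was 4.46-fold higher in DEN+WAD and 11.1-fold (7.78 to 16.5) in chow.

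Mesenchymal Kdr and Flt1 stood in different ratios to Stab2 RNA, most of all in VitA-Col1a1+ chow. For each Stab2 UMI, Stab2-positive cells of 5 libraries held 1.97 to 2.43 Kdr UMIs, and mesenchymal cells held 1.83 (chow) and 2.30 (DEN+WAD) in the VitA+ gate, 0.667 (chow, from 8 Kdr UMIs) and 1.49 (DEN+WAD) in the VitA- gate, and 2.55 in the library labelled VitA-Col1a1-. For Flt4 the same figures were 0.746 to 1.06 in Stab2-positive cells and 0.543 to 1.83 in mesenchymal cells. Flt1 had 0.621 to 1.05 UMIs per Stab2 UMI in Stab2-positive cells, but 184 in mesenchymal cells of VitA-Col1a1+ chow, where 2209 Flt1 UMIs stood beside 12 of Stab2 and 4 of Cdh5. In VitA-Col1a1+ DEN+WAD mesenchymal cells that ratio was 5.99. It was 2.54 in VitA+Col1a1+ DEN+WAD, 2.23 in the library labelled VitA-Col1a1- and 0.790 in VitA+Col1a1+ chow, the last within the Stab2-positive range. Per UMI of Clec4g, another endothelial gene, Kdr and Flt1 were at 0.170 and 0.188 in VitA+Col1a1+ DEN+WAD mesenchymal cells. The Stab2-positive cells of that library held 0.891 and 0.272. In VitA-Col1a1+ chow mesenchymal cells the values were 0.1 and 27.6. Mesenchymal cells with under 2 UMIs of Stab2, Vwf and C1qa each still held Flt1 at 70.9 CPM in VitA-Col1a1+ DEN+WAD and 156 CPM in VitA-Col1a1+ chow. Their Kdr was at 3.40 CPM (2.85 to 4.02) and 0.566 CPM (0.244 to 1.12). The VitA+ cells without these markers held Flt1 at 3.93 CPM (3.61 to 4.26) in DEN+WAD and 0.344 CPM in chow, where only 2 of 64 mesenchymal Flt1 UMIs were in these 244 cells and the rest in the 3 with a marker.

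**Figure D3:**
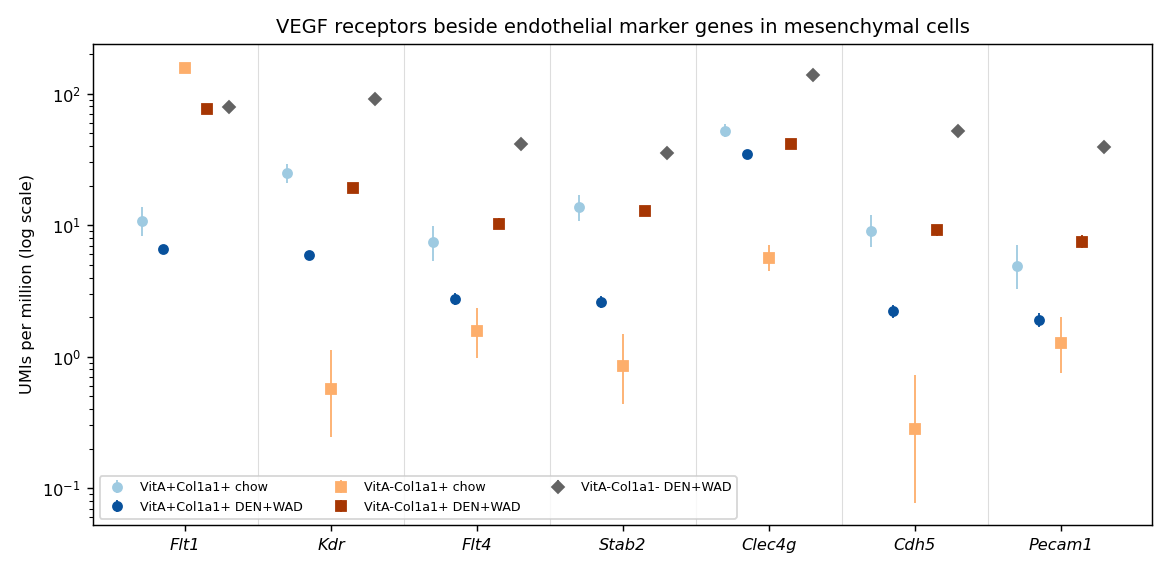
UMIs per 1000000 in mesenchymal cells of the 5 libraries, on a log axis with exact Poisson 95% intervals, for the kinase receptors and the endothelial genes Stab2, Clec4g, Cdh5 and Pecam1. Kdr, Stab2 and Cdh5 share a lowest point in VitA-Col1a1+ chow (0.566, 0.849 and 0.283), where Flt1 has its highest (156).

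Shares of cells point the same way for Flt1. In VitA-Col1a1+ chow, 20.3% of mesenchymal cells held a Flt1 UMI after thinning and 0 of 606 cells held a Kdr UMI (exact upper bound 0.607% at this thinned depth). At full depth the shares were 59.7% for Flt1 and 1.14% for Kdr, from 7 of 615 cells. For VitA-Col1a1+ DEN+WAD the thinned shares were 11.8% for Flt1 and 1.44% for Kdr (36.9% and 6.28% unthinned). VitA+Col1a1+ mesenchymal cells held Flt1 in 0.9% (DEN+WAD) and 1.64% (chow) of cells after thinning (3.49% and 2.02% unthinned), against 2.06% of C1qa-positive cells of another library (4.36% unthinned), so these shares alone do not set Flt1 apart from free RNA. In the VitA+Col1a1+ DEN+WAD mesenchymal cells with none of the 3 markers, 577 Flt1 UMIs stood beside 29 of Stab2 and 17 of Cdh5. That is 19.9 per Stab2 UMI against 0.741 in the Stab2-positive cells of that library. The first set was chosen for low Stab2 and the second for Stab2, so this gap is partly built in. Per UMI of Clec4g, which chose neither set, Flt1 was lower in the first, at 0.139 against 0.272. Whether this Flt1 was free RNA was not tested. A neuropilin UMI without any kinase receptor UMI was found in 15.4% and 15.6% of VitA+ mesenchymal cells and in 22.9% and 37.0% of VitA- mesenchymal cells, DEN+WAD first.

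Within the mesenchyme, levels of Flt1, Pgf, Vegfc and Nrp1 are given by subset. The subsets were set by marker genes and are ranges of expression, not types. Myh11 cells, with 2 or more UMIs of that smooth muscle gene, made up 19.7% and 56.3% of the VitA- mesenchyme (DEN+WAD and chow). Fibroblast-gene cells, with 2 or more UMIs summed over Thy1, Fbln2, Dpt and Clec3b and fewer of Myh11, made up 47.1% and 39.7% of it. Lrat cells, with the stellate retinol enzyme gene Lrat and fewer than 2 UMIs of either kind, made up 82.8% and 80.2% of the VitA+ mesenchyme. In both VitA-Col1a1+ libraries Flt1 was highest in the fibroblast-gene cells, at 232 CPM in VitA-Col1a1+ chow and 113 CPM in VitA-Col1a1+ DEN+WAD. The gene was at 16.4 CPM in the Lrat cells and 63.0 CPM in the Myh11 cells of VitA-Col1a1+ DEN+WAD, and at 4.28, 22.1 and 6.07 CPM in the Lrat, fibroblast-gene and Myh11 cells of VitA+Col1a1+ DEN+WAD. Stab2 in these last 3 was at 2.46, 3.02 and 3.33 CPM. Pgf was instead highest in the Myh11 cells of the DEN+WAD libraries, at 38.5 CPM against 5.93 CPM in fibroblast-gene and 1.06 CPM in Lrat cells of VitA-Col1a1+ DEN+WAD. The Myh11 cells of VitA+Col1a1+ DEN+WAD held 7.57 CPM and those of the library labelled VitA-Col1a1- held 27.3 CPM. In VitA-Col1a1+ chow, Pgf was at 14.0 CPM in Myh11 and 15.5 CPM in fibroblast-gene cells, within counting error of each other. Vegfc and Nrp1 were higher in the fibroblast-gene cells (233 and 219 CPM) than in the Lrat cells (144 and 90.7 CPM) of VitA-Col1a1+ DEN+WAD. The Lrat cells were alike in Vegfc across 4 libraries, from 129 to 144 CPM.

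**Figure D4:**
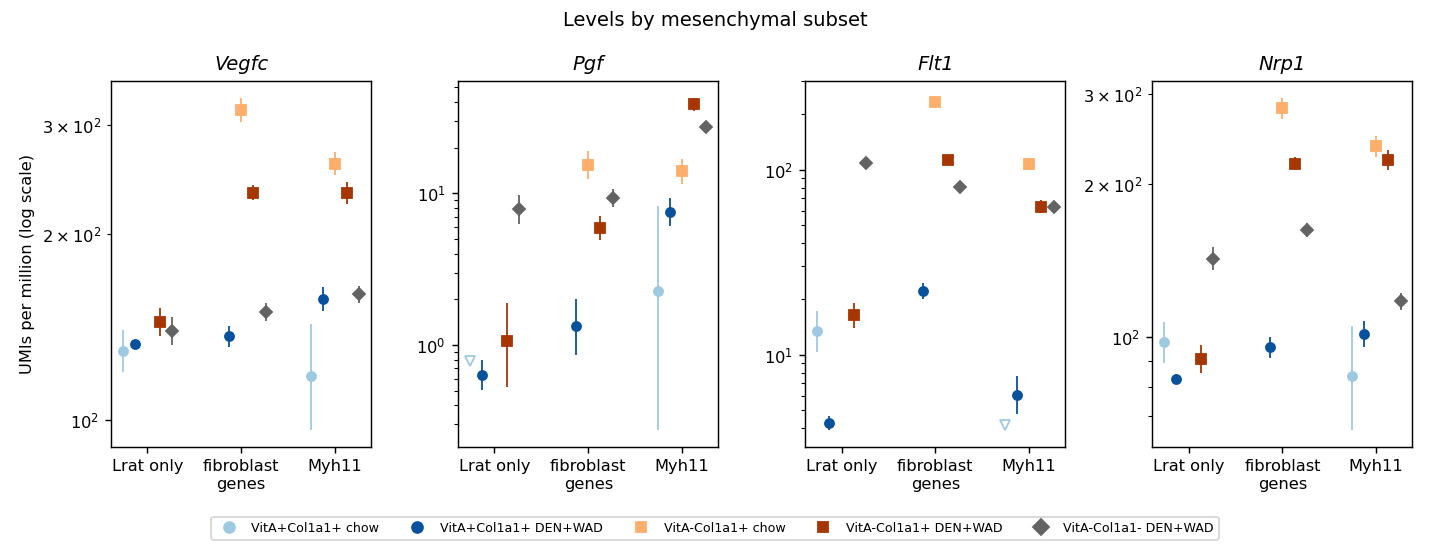
UMIs per 1000000 (log axis, exact Poisson 95% intervals) of Vegfc, Pgf, Flt1 and Nrp1 in mesenchymal cells with Lrat only, with fibroblast genes and with Myh11, by library; subsets under 20 cells are left out, and open triangles are the upper limit of subsets with 0 UMIs. Flt1 peaks in fibroblast-gene cells of VitA-Col1a1+ chow (232) and Pgf in Myh11 cells of VitA-Col1a1+ DEN+WAD (38.5).

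Col1a1 itself marked a similar division. In VitA+Col1a1+ DEN+WAD, the 416 mesenchymal cells with at least 10 Col1a1 UMIs per 10000 held Vegfa at 38.6 CPM, Pgf at 4.2 CPM and Flt1 at 27.4 CPM. The 9841 cells under that level held Vegfa at 21.6 CPM, Pgf at 1.09 CPM and Flt1 at 5.25 CPM. Vegfb went the other way, at 44.0 against 62.5 CPM. The 633 VitA-Col1a1+ DEN+WAD cells over that level held Flt1 at 116 CPM and the 1579 under it at 55.0 CPM, with Kdr at 10.2 and 24.0 CPM.

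DEN+WAD and chow were compared in each Col1a1+ gate, to ask how the family differed between DEN+WAD and chow liver within 1 sort gate. In the VitA+Col1a1+ gate over all cells, 4 of the 9 members were lower in DEN+WAD and 0 higher, where 4.48% of 11015 genes were lower and 1.85% higher. Kdr was at 30.7 against 118 CPM (ratio 0.261, 0.241 to 0.283), Flt4 at 0.327, Nrp2 at 0.355 and Flt1 at 0.424 (0.369 to 0.490). The share of Stab2-positive cells moved the same way, 1.47% against 3.47%, and the 8 sinusoidal genes, all above 0 in both, summed to 197 against 592 CPM. The chow library held 9 Stab2-positive cells, so no level was taken in them. In mesenchymal cells alone, Kdr (5.97 against 24.9 CPM) and Flt4 (2.76 against 7.41 CPM) were the 2 members lower and 0 were higher, where 3.66% and 1.99% of genes were. Stab2 in these cells was at 2.60 against 13.6 CPM. In mesenchymal cells with none of the 3 markers, 0 members were lower and 1 was higher, against 3.11% and 2.05% of genes. The 1 was Flt1, with 577 UMIs in DEN+WAD and 2 in chow (ratio 11.4, 3.15 to 94.6), the opposite of its direction over all cells. TMM scaling, which moved all log2 ratios over all cells of this gate by 0.15, left the 4 lower and 0 higher. Vegfa, Vegfb and Vegfc were not called in any of these cell sets. Vegfa in mesenchymal cells was at 22.6 against 15.7 CPM (1.44-fold, 1.17 to 1.79).

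In the VitA-Col1a1+ gate Kdr and Flt4 went the other way, while Flt1, Nrp1 and Nrp2 were not called over all cells. Over all cells, 2 members were higher in DEN+WAD and 0 lower, where 5.33% of 11746 genes were higher and 5.94% lower. These were Kdr, at 319 against 127 CPM (2.50-fold, 2.39 to 2.63), and Flt4, at 138 against 43.9 CPM (3.14-fold, 2.90 to 3.41). Here too the Stab2-positive share moved the same way, 14.5% against 5.09%, and the sinusoidal genes summed to 1856 against 667 CPM. In mesenchymal cells alone, Kdr and Flt4 were again higher, against 3.43% of genes. Kdr was at 19.1 against 0.566 CPM, from 8 UMIs in chow (33.8-fold, 17.0 to 78.5), and Flt4 at 10.3 against 1.56 CPM. Cdh5 (9.15 against 0.283 CPM) and Stab2 (12.8 against 0.849 CPM) moved with them, and their part in the result was not tested. The 2 members lower, against 5.96% of genes, were Flt1 at 76.7 against 156 CPM (0.491, 0.465 to 0.518) and Nrp2 at 23.2 against 59.2 CPM (0.391, 0.356 to 0.430). In mesenchymal cells with none of the 3 markers the same 2 were lower, Flt1 at 70.9 against 156 CPM (0.454, 0.429 to 0.480) and Nrp2 at 0.331 (0.300 to 0.366), against 6.17% of genes. There 0 members were higher under the rule, against 3.2% of genes, although Kdr was at 3.40 against 0.566 CPM, a mean under the level floor. Fibroblast marker RNA moved with them: portal fibroblast markers, all 8 above 0 in both, summed to 1636 CPM in DEN+WAD and 4056 CPM in chow mesenchymal cells, and their part was not tested. Within fibroblast-gene cells alone Flt1 was at 113 against 232 CPM and Nrp2 at 22.4 against 48.1 CPM. Vegfa at 59.6 against 84.3 CPM, Vegfc at 210 against 281 CPM and Nrp1 at 186 against 251 CPM were lower by less than 2-fold, with intervals below 1.

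**Figure D5:**
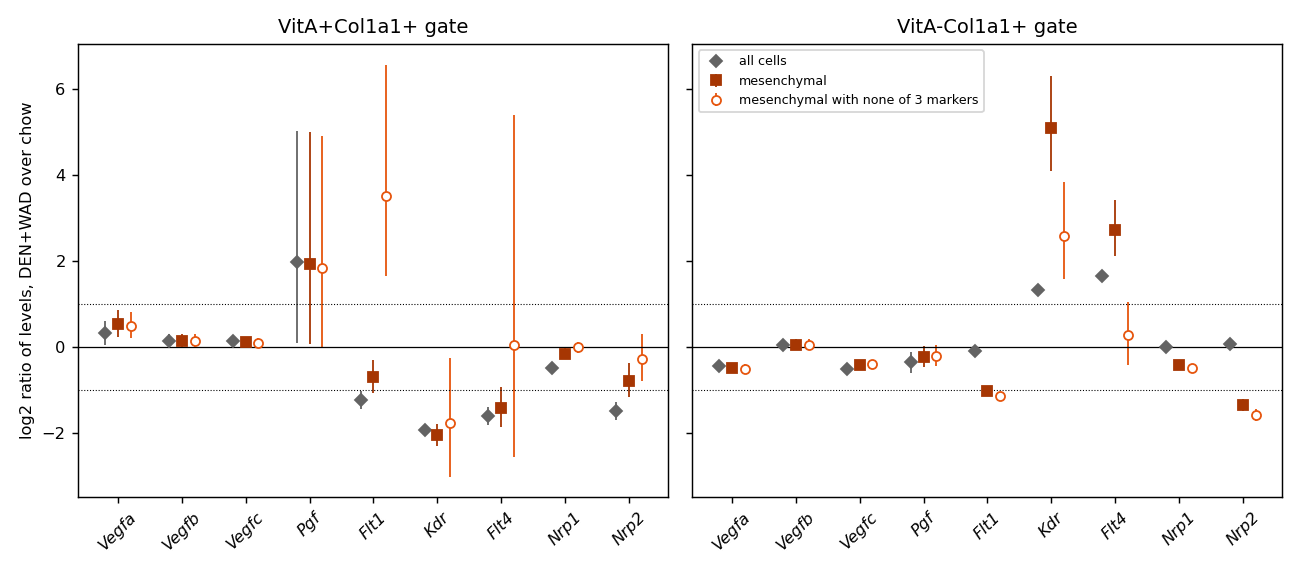
Log2 ratio of the level in DEN+WAD over chow for each member, with conditional binomial 95% intervals, over all cells, mesenchymal cells and mesenchymal cells with under 2 UMIs of Stab2, Vwf and C1qa each; dotted lines mark 2-fold. In the VitA+Col1a1+ gate Flt1 goes from -1.24 over all cells to 3.51 in the last set, and in the VitA-Col1a1+ gate from -0.09 to -1.14.

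Within Stab2-positive cells of the VitA-Col1a1+ gate, the receptors differed by less than 2-fold between DEN+WAD and chow. Kdr was at 2476 against 3032 CPM (ratio 0.817, 0.778 to 0.857), Flt1 at 864 against 1085 CPM (0.796), Flt4 at 1054 against 1003 CPM (1.05, 0.967 to 1.14), Nrp1 at 0.787 and Nrp2 at 0.877. Vegfa was the 1 member called, higher at 47.7 against 20.9 CPM from 13 chow UMIs (2.28-fold, 1.31 to 4.34), where 9.81% of genes were higher, and 0 members were lower, against 5.99%. The chow library held 34 such cells. Of the 12 genes known to be induced by VEGF in endothelium, 5 were higher in DEN+WAD and 0 lower, where 9.81% and 5.99% of all genes were. Their median log2 ratio was 0.61 against 0.01 over all genes, with sums of 0 UMIs set to 3 UMIs. Whether VEGF signalling differed was not tested. Kcne3, a potassium channel subunit, was at 31.6 against 6.43 CPM from 4 chow UMIs (4.92-fold, 1.89 to 18.2), and Esm1, the endothelial proteoglycan endocan, at 121 against 54.7 CPM (2.21-fold, 1.57 to 3.22). Apln, the apelin ligand, had 66 UMIs against 0 and was at least 2.50-fold higher. Egr3, an early response factor, had 61 UMIs against 1 (ratio 6.93, 1.20 to 278).

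The wider pathway was read from lists chosen by function. Over all cells of the VitA+Col1a1+ gate, 12 of 16 genes that assist or modify VEGF signalling passed the level floor, and 4 of them were lower in DEN+WAD and 0 higher, where 4.48% and 1.85% of all genes were. In the VitA-Col1a1+ gate 14 passed the floor, and 5 were higher and 2 lower, where 5.33% and 5.94% of all genes were. The junction genes Cdh5 and Pecam1 and the phosphatase gene Ptprb were lower in the first and higher in the second, as Kdr was. Over the accessory genes the median log2 ratios were -0.56 and -0.12, against -0.08 and -0.03 over all genes. Vegfd, which encodes a further ligand of Flt4, was the 1 accessory gene lower in mesenchymal cells of the VitA-Col1a1+ gate, at 128 CPM in DEN+WAD against 363 CPM in chow (0.352, 0.338 to 0.366). It was at 2.70 CPM and 0.674 CPM (4 UMIs) in VitA+ mesenchymal cells, and at 159 CPM in the fibroblast-gene but 2.50 CPM in the Lrat cells of VitA-Col1a1+ DEN+WAD. Of the 12 class 3 semaphorins and plexins, which share the neuropilins with VEGF, 7 passed the level floor in VitA+ and 9 in VitA- mesenchymal cells. Of these, 1 was lower in DEN+WAD in VitA+ cells and 4 in VitA- cells, where 3.66% and 5.96% of all genes were, and 0 were higher in either. Plxna4, a semaphorin receptor subunit, was at 170 against 524 CPM in the VitA- mesenchyme and Sema3c at 0.789 against 5.38 CPM. Of the 5 angiopoietin and Tie genes over all cells, 3 passed the floor in the VitA+ gate and 5 in the VitA- gate. Tek and Tie1 were the 2 lower in the first, against 4.48% of all genes, and the 2 higher in the second, against 5.33%. Dll4, the Notch ligand that VEGF induces in tip cells, was at 8.79 against 26.9 CPM in VitA+ mesenchymal cells and at 8.21 against 24.2 CPM in those with none of the 3 markers. Of the 18 HIF and hypoxia genes, 15 passed the floor in VitA+ and 17 in VitA- mesenchymal cells. Of these, 1 was higher in VitA+ cells of DEN+WAD (Ankrd37, 3.95 against 1.68 CPM from 10 chow UMIs), against 1.99% of all genes, and 0 were called in the VitA- mesenchyme. Their median log2 ratios were 0.02 and -0.02, against -0.06 and -0.09 over all genes.

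Over the 11 library and class sums with at least 20 cells, the gene most like each member in log2(CPM + 1), among 9020 genes, was as follows. Kdr was closest to Oit3 (Pearson r = 0.998) and then Dpp4 and Cldn5, and Flt4 to Rasgrp3 (0.999) and then Cd300lg and Oit3. Flt1 was closest to Cavin2 (0.997), Nrp1 to Gipc3 (0.994) and Nrp2 to Fyn (0.981). The ligands were closest to Grk5 (Vegfc, 0.977), Gpr39 (Pgf, 0.960), Pex3 (Vegfb, 0.929) and Uqcc2 (Vegfa, 0.913). The sums share libraries and differ mainly in cell class, so these figures describe the pattern only.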

How the data were processed

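Sorted mouse liver cells were profiled as 1 droplet library per group. The authors aligned reads to mm10 and counted UMIs with Cell Ranger (3.1.0 in the headers of the 4 Col1a1+ libraries, 6.1.2 in that of the library labelled VitA-Col1a1-), and deposited whole-number counts per gene and barcode with no normalization. The labels name more than 1 version of the 3′ kit, and the one used could not be settled. Every deposited barcode was used, with totals from 6145748 to 149936344 UMIs per library, and those of under 2000 UMIs numbered 4 to 1439. The study's bulk RNA data were not used here.

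UMIs were summed per library or class and scaled to 1000000. Levels have exact Poisson, shares exact Clopper-Pearson and ratios conditional binomial 95% intervals, and all cover counting error only, so they say nothing of the spread between mice. Calls needed a ratio of 2 or more either way and a mean level of at least 2 CPM. A sum of 0 UMIs was set to 3 UMIs for a bound. Classes under 20 cells were given no level. For shares, cells were thinned to 2000 UMIs. All 9 members are named, with up to 4 genes of largest ratio per pathway list and the most similar genes per member. Which single marker genes are given beside results was chosen after their values were seen. The members and lists were chosen with earlier results of these data known. Of the lymphatic markers 5 of 6 were found. Identifiers of 31011 genes were found in GENCODE M21, and promoter windows came from RefSeq (GRCm38.p6).

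Software was scipy 1.17.1, numpy 2.4.6, matplotlib 3.10.9 and pandas 2.3.3 in Python 3.11.15, and TMM factors came from R 4.3.3 with edgeR 4.0.16. The call rule was tested on simulated data. Alternatives covered scaling, fold, level floor, cell filters and class bounds.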

Additional observations from a re-analysis of the deposited data

Results flagged for a closer look

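Effects of DEN+WAD against chow that pointed in opposite ways in the VitA+Col1a1+ and VitA-Col1a1+ gates are listed here. Each rests on single libraries, and the difference was not tested. Over all cells the log2 ratio in the VitA+ gate minus that in the VitA- gate was -3.26 for Kdr (-1.94 and 1.32) and -3.27 for Flt4 (-1.61 and 1.65). For the ligands it was 0.77 for Vegfa (0.32 and -0.45), 0.67 for Vegfc (0.14 and -0.53) and 2.32 for Pgf (1.96, from 2 chow UMIs, and -0.36). In mesenchymal cells it was -7.14 for Kdr (-2.06 and 5.08) and -4.15 for Flt4 (-1.43 and 2.72). There it was also 1.03 for Vegfa (0.53 and -0.50) and 0.53 for Vegfc (0.11 and -0.42). The Stab2 level in mesenchymal cells was lower in DEN+WAD of the VitA+ gate (2.60 against 13.6 CPM) and higher in that of the VitA- gate (12.8 against 0.849 CPM), in the direction of Kdr and Flt4. Its part in these differences was not tested. In VitA+Col1a1+ chow, the mesenchymal cells with none of the 3 markers held 6 of the 148 mesenchymal Kdr UMIs and 1 of the 44 of Flt4. The rest were in 3 cells with a marker. In the cells with none of the 3 markers, Kdr and Flt4 had means under the level floor in both gates.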

How the results depend on the processing

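With 1 library per group, no replicate could be left out. No paired analysis was possible because each group holds 1 library and no result comes from a test. Of 84 recomputed counts of members, 72 stayed within 1.5 times the reported count, and 12 moved. In the VitA+Col1a1+ gate the count higher in DEN+WAD went from 0 to 1 with a level floor of 0.5 CPM, and to 1 in mesenchymal cells with none of the 3 markers and to 1 in those with no endothelial UMI. There the count lower went from 4 to 2 in mesenchymal cells alone, and to 0 in each of the sets with none of the 3 markers and with no endothelial UMI. In the VitA-Col1a1+ gate the count higher went from 2 to 0 in both of these sets, and the count lower from 0 to 2 in them and in mesenchymal cells alone. The count lower in Stab2-positive than in mesenchymal cells went from 2 to 1 with a level floor of 10 CPM, which Pgf does not reach. Of 207 recomputed log2 ratios of members, 4 reversed. In the VitA+Col1a1+ gate Flt1 went from -1.24 to 3.51 with none of the 3 markers and to 3.15 with no endothelial UMI, each from 2 chow UMIs, and Flt4 from -1.61 to 0.043 with none of the 3 markers, from 1 chow UMI. Between the VitA- and VitA+ mesenchymal cells of chow, Flt4 went from -2.25 to 3.18 with none of the 3 markers, from 1 VitA+ UMI. These sets hold fewer cells and, by their construction, little endothelial RNA. Any other cause was not tested. Leaving out barcodes shared between libraries moved none of the counts of members by over 1.5 times. The set with no endothelial UMI (0 UMIs of Stab2, Clec4g, Cdh5 and Pecam1) the repeat in another library and the marker-free ratios between classes, gates and libraries were chosen after seeing the data. Of the rest, 156 held, 16 fell short of the call, 3 newly passed it and 28 moved beyond their interval, of which only Nrp2 in the VitA-Col1a1+ gate changed its call, from 0.06 to between -1.35 and -1.59 (newly lower) in the 3 mesenchymal sets.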

Other observations

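Mesenchymal cells of the library labelled VitA-Col1a1- were close to those of VitA-Col1a1+ DEN+WAD in 2 members, Vegfa at 62.4 against 59.6 CPM (ratio 1.05, 0.995 to 1.10) and Flt1 at 79.5 against 76.7 CPM (1.04, 0.990 to 1.08). For Flt1 this did not hold in mesenchymal cells with under 2 UMIs of Stab2, Vwf and C1qa each, where it was at 43.0 against 70.9 CPM (0.607, 0.573 to 0.642), while Vegfa was at 61.2 against 59.3 CPM (1.03, 0.977 to 1.09). Over all mesenchymal cells, Kdr (4.75, 4.4 to 5.12), Flt4 (4, 3.60 to 4.45) and Nrp2 (3.27, 3.04 to 3.51) were higher in the library labelled VitA-Col1a1-. The 8 sinusoidal markers summed to 540 against 147 CPM in these cells. Barcodes outside all classes held Vegfa at 133 CPM (98.7 to 174) in VitA+Col1a1+ DEN+WAD, from 58 barcodes, and at 154 CPM (128 to 183) in VitA-Col1a1+ DEN+WAD, from 88 barcodes.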
